A study of Mus musculus with 9 samples.

Results

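The 29 genes described here are those commonly used as reference genes, because nearly every cell type expresses them: Actb, Actg1, Eef1a1, Eef2, Tbp, Hprt, Ppia, Ppib, Ubb, B2m, Tuba1b, Hsp90ab1, Hspa8, Sdha, Polr2a, Psmb2, Psmb4, Psma1, Vcp, Rab7, Snrpd3, Chmp2a, Emc7, Reep5, Vps29, Ywhaz, Gusb, Eif4a2 and Cltc. They were followed through the open chromatin of activated CD8 T cells. The peaks of 9 ATAC-seq peak lists were merged, where they overlapped by at least 1 base, into 62963 union regions. A region belonged to a gene when it overlapped the gene's body on mm10, or when the protein-coding gene end nearest to it, within 100 kb, was that gene's. All 29 genes had at least 1 region, out of 21631 protein-coding genes in the gene table, and together they held 104 regions of the 62963. Of these regions, 11 were also assigned to another gene, at 6 of the 29 genes (B2m, Eef2, Eif4a2, Sdha, Snrpd3 and Vps29).

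ATAC-seq cuts accessible DNA with the Tn5 transposase, so that peaks of sequenced fragments mark promoters, enhancers and other places where nucleosomes are absent or displaced. Promoters of constitutively expressed genes usually lie in CpG islands and stay accessible in resting and dividing cells alike. Distal elements of the same genes can still open or close with the cell's state. In T cells, activation raises protein synthesis, cytoskeletal turnover and proteasome use, and the genes here serve all of these.

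The cells were CD8 T cells of the P14 line, whose transgenic receptor recognizes the GP33-41 peptide of lymphocytic choriomeningitis virus on H-2Db. They came from P14 mice with a TCF-1 reporter (GFP), and CD44-negative, GFP-positive cells, the naive population, were the ones given. Each C57BL/6 host received 500000 of them on day 8 after B16.F10 melanoma cells that express the viral glycoprotein (B16.Gp). CD45.1+ CD44+ CD8 T cells were sorted from the tumor-draining lymph nodes 4, 8 and 21 days after transfer (D4, D8 and D21), and 50000 cells went into each of 3 libraries per day. All groups carry the label WT and are told apart by the day alone, and the day cannot be told apart from its libraries. The labels do not give the age of the animals and leave unsaid if the libraries within a day stem from different animals.

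The lists differed in ways that touch every result below. The D4 lists held 19499 to 22250 peaks on chromosomes 1 to 19 and X, against 47513 to 50835 on D8 and 46492 to 51671 on D21. Read totals are not in the lists, so the depth is known only through the smallest background of each list, which was 2.62 to 3.38 on D4, 2.14 to 2.63 on D8 and 2.33 to 3.08 on D21. The median summit stood 10.7 to 11.2 times over that background on D4 and 24.4 to 28.6 times over it on D8 and D21. Lists of the same day differed by less than counting noise: the chi-square per region between their summit pileups was 0.417 to 0.444 over 9 pairs, where independent Poisson counts give about 1. Taking the maximum of a peak lowers this value. Pairs from different days, counted the same way but including any change between the days, gave 0.965 to 1.19 over 27 pairs. The 3 lists of a day may be repeat measures of 1 library or share reads, which was not tested. The SDs and p-values below cover only the spread between these lists. Of 9 CD8 T cell markers with a match (Cd3e, Cd8a and others), all 9 had a called region in every list. B cell markers summed to 0 to 2 called regions per D4 list, with Cd79a, Cd79b and Ebf1 at 0, and to 12 to 18 on D8 and D21. Endothelial and stromal markers summed to 2 to 4 on D4 and 19 to 24 later, and myeloid markers to 4 and 15 to 20. The CD8 T cell markers themselves summed to 19 to 24 on D4 and 48 to 53 later. The part of other cells in the results below was not tested.

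Promoter sequences are shown for 6 genes, picked for their ranks or for their motifs. Vcp and Ppib had ranks that moved in opposite directions, and Gusb had a low rank that was higher on both later days. Polr2a and Ppia have a TATAAA close to the start. Actg1 has a CArG box (the serum response factor element), the only one among the 25 promoter entries that lies within 150 bases of the start. Each stretch holds the 150 bases before the annotated start in RefSeq's GRCm38.p6 table (mm10), 5′ to 3′ on the gene's strand. Capitals mark any of 9 motifs found by letter match on either strand: the TATA box TATAAA, the NF-Y box CCAAT, the Sp1-bound GC box GGGCGG, the NRF1 core GCGCATGC, the ETS-type site CCGGAAG, the cAMP response element TGACGTCA, the YY1 site GATGGCGG, the heat shock element core GAANNTTC and the CArG box. Vcp lies on the minus strand (chr4:43000508-43000657), Ppib on the plus strand (chr9:66060019-66060168), Gusb on the minus strand (chr5:130003050-130003199), Polr2a on the minus strand (chr11:69758634-69758783), Ppia on the plus strand (chr11:6415717-6415866) and Actg1 on the minus strand (chr11:120348496-120348645).
Vcp: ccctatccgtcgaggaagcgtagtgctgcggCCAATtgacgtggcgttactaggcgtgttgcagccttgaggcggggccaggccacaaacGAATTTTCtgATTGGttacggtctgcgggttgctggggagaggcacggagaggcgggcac
Ppib: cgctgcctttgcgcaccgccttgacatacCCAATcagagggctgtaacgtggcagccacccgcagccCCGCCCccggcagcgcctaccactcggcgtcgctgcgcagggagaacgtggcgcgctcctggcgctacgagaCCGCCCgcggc
Gusb: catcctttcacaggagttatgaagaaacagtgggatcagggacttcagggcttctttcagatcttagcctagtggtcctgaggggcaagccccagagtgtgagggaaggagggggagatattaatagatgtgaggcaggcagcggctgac
Polr2a: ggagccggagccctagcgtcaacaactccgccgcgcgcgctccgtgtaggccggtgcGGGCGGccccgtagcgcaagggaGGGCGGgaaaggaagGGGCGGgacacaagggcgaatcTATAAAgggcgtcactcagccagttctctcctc
Ppia: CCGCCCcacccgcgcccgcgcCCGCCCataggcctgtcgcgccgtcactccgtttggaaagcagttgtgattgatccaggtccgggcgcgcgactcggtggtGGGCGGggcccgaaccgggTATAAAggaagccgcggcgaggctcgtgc
Actg1: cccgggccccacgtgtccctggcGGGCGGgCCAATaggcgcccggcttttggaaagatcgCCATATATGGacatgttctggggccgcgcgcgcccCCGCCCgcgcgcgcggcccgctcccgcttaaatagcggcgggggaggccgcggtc

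The promoter table held 25 entries for 23 of the 29 genes, with none for Ywhaz, Hsp90ab1, Reep5, Hspa8, Actb and Psmb2. Of the 25 windows (250 bases before to 50 after the start), 22 overlapped a region called in all 9 lists, or 88%, against 41% of 21045 protein-coding promoters. In the 250 bases before the start, TATAAA was found in 7 of 25 windows (28%), against 11.7% of all promoters and 4.95% of the 8633 promoters in an always-called region. The matches began 15 to 33 bases upstream in Eef2, Ppia and Polr2a and 76 to 249 in B2m, Psmb4, Rab7 and Vcp. The GC box was in 14 windows (56%, against 43.1% and 64.7%), and CCAAT in 9 (36%, against 35.6% and 38.5%). The NRF1 core was in 3 (12%, against 2.95% and 5.51%), the ETS-type site in 1 (4%, against 9.08% and 17.7%), and the heat shock core in 3 (12%, against 6.22% and 4.59%). The CArG box was in 2 (8%, against 1.4% and 1.02%). The cAMP response element and the YY1 site were in 0 of 25, against 1.94% and 1.06% of all promoters. The median window held 21 CpG, against 10 in all promoters and 18 in those of always-called regions, and its GC content was 60.8%, against 55.6% and 61.2%. In the stretches printed above, TATAAA begins 29 bases upstream of the Ppia start and 33 bases upstream of the Polr2a start, and CCAAT lies in Vcp at 119 and, on the other strand, 50 bases upstream. These are letter matches and not sites of binding.

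The place of the summits differed among the promoters. In 16 of the 25 entries the summits of all lists lay within 200 bases of the start. Counted in bases from the start, with negative values upstream, the median summit over the 25 entries was at -55, and in 18 entries the summits of all lists lay upstream. Ubb, a polyubiquitin gene, had the tightest summits, between -49 and -40 from its first start in all 9 lists. Vcp summits lay between -61 and -47, over its proximal CCAAT and GAANNTTC matches. The Snrpd3 and Cltc summits lay farther upstream, with medians of -660 and -518. The Snrpd3 region is also assigned to another gene, and to which gene its summit belongs was not tested. The Gusb summits lay at 95, 144 and 142 on D4, at 551, 550 and 542 on D8 and at 177, 549 and 493 on D21, so that the days did not share 1 summit. The Eef1a1 summits lay at 37 in D4 list 1, at 714 in D8 list 3 and between -216 and -204 in the other lists.

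Most of the genes kept an accessible region at a gene end on every day. Within 1 kb of their gene's end, 26 of 38 regions were called in all 9 lists (68.4%), against 56.7% of all 14117 regions that near to any gene end. Farther out or deeper in, 14 of 66 were called in all 9 (21.2%), against 14.5% of the other regions of the genome. Over all 104 regions the share was 38.5%, against 24% of all union regions. An always-called region stood at a gene end, 5′ or 3′, of 25 of the 29 genes. For Eef2 this was the 3′ end, in a region also assigned to another gene. Actb, Reep5 and Ywhaz, 3 others, had always-called regions only more than 1 kb from the ends in the gene table. The nearest lay inside the gene, at 1.036 kb for Actb, 1.056 kb for Reep5 and 8.26 kb for Ywhaz. These genes had no promoter entry, so whether such a region holds a start site was not tested. Psmb4, a proteasome subunit, had no always-called region, because its gene-end region was missing from D4 list 2. The 5′ region of Eef2, the factor that moves the ribosome along the mRNA, was missing from the same list.

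The number of called regions was lowest on D4. The D4 lists called 47, 47 and 52 of the 104 regions, the D8 lists 80, 83 and 88, and the D21 lists 76, 75 and 86, so that no D4 list overlapped a later one. This was 46.8% ± 2.78 of the regions on D4, 80.4% ± 3.89 on D8 and 76.0% ± 5.85 on D21 (SD, n = 3 lists). The D8 share exceeded the D4 share by 33.7 percentage points and the D21 share by 29.2 (two-sided exact permutation p = 0.1 for each, the smallest that 3 against 3 lists allow). D21 differed from D8 by -4.49 points (exact permutation p = 0.3). Over all union regions the shares were 30.2%, 74.5% and 73.9%, so the regions of the 29 genes made up 0.256% of the called regions on D4 and 0.178% and 0.170% later. The direction depended on the number of peaks. When each list was reduced to its 19499 strongest peaks, 75.7% of the members' 63 remaining regions were called on D4 and 59.3% on D8 and on D21, a difference of -16.4 points. The share over all union regions at this setting is not given here, so the reversal cannot be read as particular to the members.

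**Figure D1:**
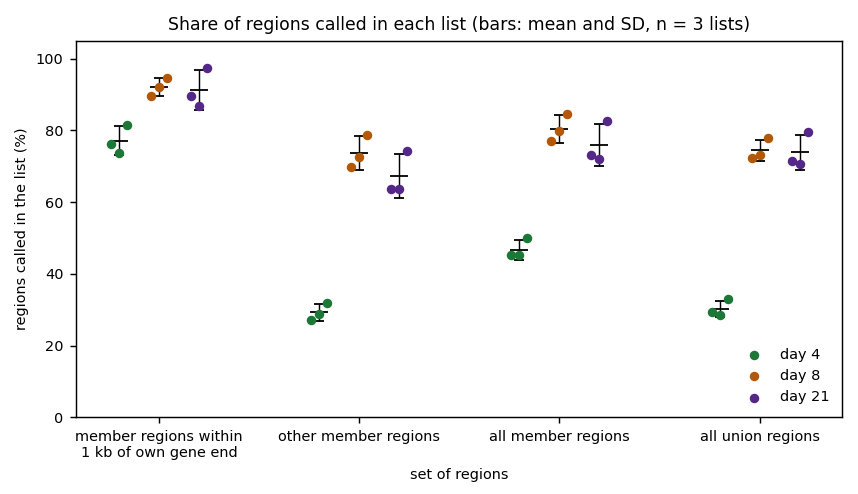
Share of regions called in each list (y axis, %) for the regions within 1 kb of the gene end, the other regions of the 29 genes, all 104 of them and all 62963 union regions (x axis). Points are lists, bars the mean and SD of 3 lists per day. The gene-end regions stand at 77.2% on D4 and 92.1% on D8, and the other regions at 29.3% and 73.7%.

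At the regions of the 29 genes, the difference between D4 and the later days was larger away from gene ends. Over all union regions the shares per day were not split by distance. The share called in no D4 list was larger away from gene ends in both sets. In no D4 list were 18.4% of the gene-end regions and 65.2% of the other regions called, against 32.4% and 71.7% of all regions of the same kinds. At gene ends the lists called 76.3%, 73.7% and 81.6% on D4, 89.5%, 92.1% and 94.7% on D8 and 89.5%, 86.8% and 97.4% on D21. At the other regions they called 27.3%, 28.8% and 31.8% on D4, then 69.7%, 72.7% and 78.8%, then 63.6%, 63.6% and 74.2%. Neither set overlapped between D4 and the later days.

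Counted by gene, 20 of the 29 had more called regions on D8 than on D4 by the mean, 9 had as many and 0 had fewer. In 11 of the 29 genes every D8 list had more called regions than every D4 list, against 54.4% of all genes with a region. In 9 genes every D21 list exceeded every D4 list, against 51.7%. Both counts are below the share of all genes. Between D8 and D21, 5 genes gained by the mean, 9 lost and 15 kept their number. Every D21 list exceeded every D8 list in 0 of the 29, against 2.16% of all genes.

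**Figure D2:**
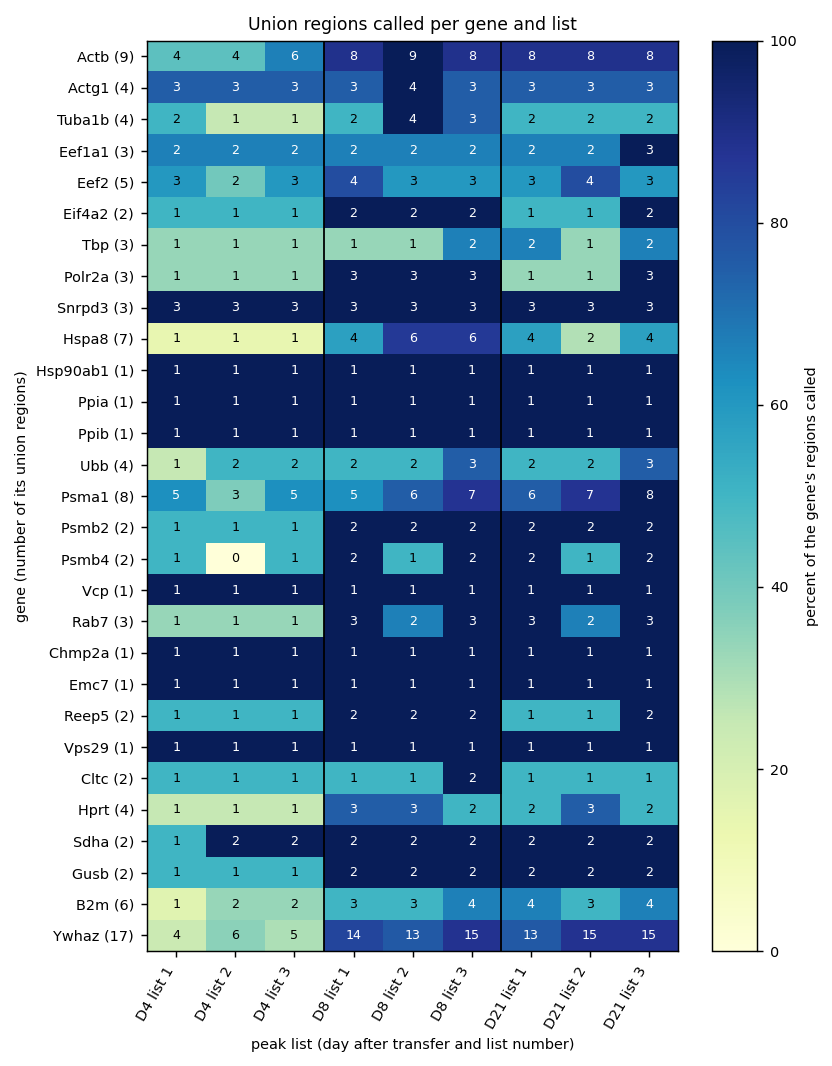
Number of union regions called for each of the 29 genes (y axis, with the gene's number of regions in brackets, ordered by role) in each of the 9 lists (x axis). The color gives the percent of the gene's regions called. Ywhaz goes from 4, 6 and 5 regions on D4 to 14, 13 and 15 on D8, while 8 genes have the same number in all 9 lists.

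The cytoskeletal genes opened the order. Actb, which encodes beta-actin, had 9 regions. Of these, 4, 4 and 6 were called on D4, 8, 9 and 8 on D8 and 8, 8 and 8 on D21, and all later lists exceeded all D4 lists. Actg1, gamma-actin, had 4 regions, of which 3 were called in 8 lists and 4 in D8 list 2. Tuba1b, an alpha-tubulin, had 4 regions with 2, 1 and 1 called on D4, 2, 4 and 3 on D8 and 2, 2 and 2 on D21, so that its days overlapped.

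The genes of transcription, splicing and translation differed among themselves. Snrpd3, a core protein of the spliceosomal snRNPs, had 3 regions and all were called in every list. Eef1a1, which brings aminoacyl-tRNA to the ribosome, had 2 of 3 regions called in every list but D21 list 3. Tbp, the TATA-binding protein, had 1 region called in all 3 D4 lists and 1 or 2 later. Polr2a, the largest subunit of RNA polymerase II, had 1 called region in each D4 list, 3 in each D8 list and 1, 1 and 3 on D21. Eif4a2, a helicase of translation initiation, had 1 in each D4 list, 2 in each D8 list and 1, 1 and 2 on D21. The pair of extra Polr2a regions lay 3.617 kb inside the gene from its 5′ end and 4.554 kb past its 3′ end.

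Among chaperones, Ppia and Ppib, the cyclophilins A and B that isomerize prolines, and Hsp90ab1, a cytosolic HSP90, had a single region each, called in all 9 lists. Hspa8, the constitutive HSC70 chaperone, had 7 regions. Each D4 list called 1 of them, the D8 lists called 4, 6 and 6 and the D21 lists 4, 2 and 4. Of the genes of protein turnover, Vcp, an ATPase that extracts ubiquitylated proteins, had 1 region in all lists. Psma1, a proteasome alpha subunit, had 8, with 5, 3 and 5 called on D4, 5, 6 and 7 on D8 and 6, 7 and 8 on D21. Psmb2, a beta subunit, went from 1 region in every D4 list to 2 in every later list.

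Of the genes of membrane traffic, Chmp2a (an ESCRT-III subunit), Emc7 (a subunit of the ER membrane complex) and Vps29 (a retromer subunit) had 1 region each in all 9 lists. Cltc, the clathrin heavy chain, had 1 region in 8 of the lists and 2 in D8 list 3. Rab7, a late endosomal GTPase, had 1 region in every D4 list and 2 or 3 later, and Reep5, an ER-shaping protein, had 1 on D4, 2 on D8 and 1, 1 and 2 on D21. Of the metabolic enzymes, Hprt, which salvages purines, had 1 region in each D4 list and 2 or 3 later. Gusb, a lysosomal beta-glucuronidase, went from 1 to 2, and Sdha, of respiratory complex II, had 1, 2 and 2 on D4 and 2 in all later lists. B2m, the light chain of MHC class I, had 6 regions with 1, 2 and 2 called on D4, 3, 3 and 4 on D8 and 4, 3 and 4 on D21. Ywhaz, the 14-3-3 zeta adaptor, had the most, 17, with 4, 6 and 5 called on D4, 14, 13 and 15 on D8 and 13, 15 and 15 on D21. Its regions reached 93.4 kb from a gene end, because no other protein-coding gene end lay nearer.

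The regions that appeared after D4 can be named. Of the 104, 21 were called in 3 of 3 D8 lists and 0 of 3 D4 lists (20.2%), against 25.7% of all union regions, and 17 in 3 of 3 D21 lists and 0 of 3 D4 lists (16.3%), against 25.3%. Both shares are below those of all regions. In all 6 later lists and in no D4 list stood 15 (14.4%, against 19.2%), at 9 genes. These were 6 of Ywhaz, 2 of Actb and 1 each of B2m, Eef2, Gusb, Hprt, Hspa8, Psmb2 and Rab7. The Ywhaz region 52.4 kb from the gene end (chr15:36855359-36856051) had a fold enrichment of 7.81, 9.56 and 10.4 on D8 and of 8.89, 7.07 and 9.49 on D21. The Psmb2 region inside the gene (chr4:126683022-126683422) stood at 7.97, 8.43 and 8.13, then at 6.67, 6.65 and 7.36. The days overlapped for the Ywhaz region, and every D8 list stood above every D21 list for the Psmb2 region.

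A further 6 regions were called in all D8 lists and no D4 list but not in every D21 list (5.77%, against 6.53% of all union regions). Of these, 5 were called in only 1 D21 list (4.81%, against 1.88%), which for all 5 was list 3 (against 1.13% of all union regions), the longest of that day with 51671 peaks: both Polr2a regions, and 1 each of Eif4a2, Reep5 and Hspa8. The Hspa8 one, 29.4 kb from the gene (chr9:40834632-40834956), had a fold enrichment of 7.97, 7.73 and 6.34 on D8 and of 4.66 in D21 list 3. No region of the 29 genes was called in all D21 lists and no D8 list or the reverse, against 1.02% and 1.09% of all regions.

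A single region went the other way. Inside Eef2 (chr10:81178023-81178264, 1.39 kb from its 5′ end) a 242-base region was called in all 3 D4 lists, with a fold enrichment of 3.73, 3.82 and 4.18, and in no later list. The same was true of 3 of the 62963 regions (0.00476%). Called in 3 of 3 D4 lists and 0 of 3 D8 lists were 6 regions in all (0.00953%), and 5 against D21 (0.00794%). In the D4 lists the region at the 5′ end of Eef2 had a fold enrichment of 3.03 and 3.02, with no call in list 2, and of 3.94 to 4.54 later.

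The count of regions per gene was set against the totals of the lists with limma, on log2 of the regions called plus 0.5, divided by the list's relative total. This fit took 8223 genes with at least 3 regions, among them 15 of the 29, and 14 had too few. Hspa8 came out higher on D8 than on D4, by 0.64 ± 0.22 on the log2 scale (SE, limma, Benjamini-Hochberg adjusted p = 0.0390), and 8 of the 15 came out lower, against 16.4% higher and 27.9% lower of all genes (44.3% either way). Their median difference was -0.51, against -0.14 over all genes. On D21 against D4, 0 were higher and 10 lower (43.8% of all genes either way, 16.3% higher and 27.5% lower). On D21 against D8, 0 were called by limma (0.0243% of all genes), with 2 at an unadjusted p under 0.05. Of 37 tested genes in a list of 84 related constitutive genes (other proteasome, ribosome, actin, tubulin, chaperone and 14-3-3 genes), 1 was higher and 17 lower on D8, and 2 higher and 13 lower on D21, both against D4.

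These calls rest on the division by the totals. Without it, 8 of the 15 were higher on D8 and 0 lower, and 7 higher and 0 lower on D21. Over all 8223 genes, 7005 were then higher on D8 and 6875 on D21, with 0 lower on either day. The members' shares were thus below those of all genes. For 10 of the 15, so many of their regions were called on D4 that no count on D8 could have come out higher after the division. These included all 8 genes called lower on D8 with the division, so that count cannot test a direction. Snrpd3, with every region called in every list, came out at -1.30. On simulated data this fit recovered few of the changed genes, and many of its calls were at genes that had not been changed, so its values are given as a description. The Hspa8 call ended when any of 6 lists was left out, with adjusted p of 0.0527 to 0.129 (limma): each of the D4 lists, D8 lists 2 and 3 and D21 list 3. On D21 against D4, Tbp lost its call without D4 lists 1 or 2 or D21 lists 2 or 3 (0.0549 to 0.103), Tuba1b without D4 list 1 or any D21 list (0.0669 to 0.107), Polr2a without D4 list 2 or D21 lists 1 or 2 (0.0557 to 0.0824) and Psma1 without D21 list 1 (0.0526).

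Heights were compared at the regions that every list called. The fold enrichment in the lists is the authors' value, the pileup of tags at the summit over the local background. It was ranked within each list over the 15109 regions called in all 9, so that lists of unequal length could be set side by side, and the ranks were turned into normal scores (a difference of 1 is 1 SD of all ranked regions). Of the 104 regions 40 entered, from 28 of the 29 genes, and 64 did not. Both extremes of the scale held members. Emc7 stood at the 91.6th percentile on D4 and the 93.0th and 94.3rd on D8 and D21, while the Actg1 promoter and both Actb body regions stood between the 1.2nd and the 5.6th on D8.

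Between D4 and D8, 4 of the 40 regions rose in rank and 7 fell (27.5%), against 28.4% of all ranked regions (12.9% up, 15.4% down). Between D4 and D21, 4 rose and 10 fell (35%), against 32% (14.7% up, 17.2% down). Between D8 and D21, 0 passed in limma (0.0199% of all), with 1 at an unadjusted p under 0.05. The shares called are near those of all regions. The median score difference of the 40 was -0.20 on D8 and -0.22 on D21 against D4, beside -0.04 and -0.05 over all ranked regions and -0.13 and -0.19 over those near gene ends.

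**Figure D3:**
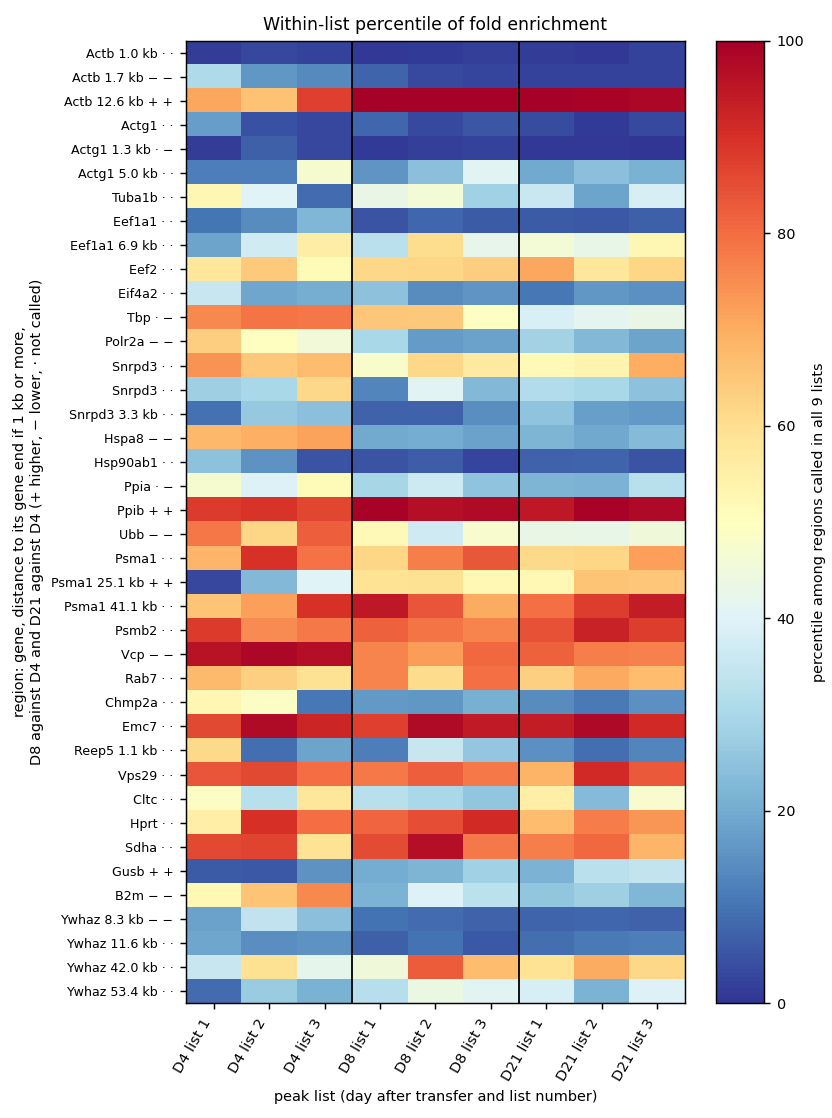
Percentile of fold enrichment (color, 0 to 100) among the 15109 regions called in all 9 lists, for the 40 regions of the 29 genes (y axis, ordered by role, with the distance to the gene end where it is 1 kb or more) in each list (x axis). Signs after the names give the limma calls for D8 and D21 against D4. The Actb region 12.6 kb away turns from the 74.6th percentile on D4 to the 99.5th on D8, and Hspa8 from the 69.5th to the 19.3rd.

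The largest rise among the 40 regions was at a distal region of Actb (chr5:142920541-142921215), 12.6 kb outside the gene. Its fold enrichment was 6.84, 6.53 and 7.97 on D4, 15.9, 15.8 and 15.9 on D8 and 15.9, 14.8 and 13.9 on D21. In percentiles this was 70.7, 65.6 and 87.4, then 99.4, 99.5 and 99.5, then 99.6, 99.0 and 98.3, with no overlap between D4 and the later days. The score rose by 1.86 ± 0.23 on D8 (SE, limma, adjusted p = 0.000169) and by 1.67 ± 0.23 on D21 (adjusted p = 0.000224), both against D4. Its summit pileup, recovered from the fold and the p-value of the peak, was 35, 31 and 47 on D4, 108, 114 and 123 on D8 and 98, 94 and 103 on D21.

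The other regions that rose were those of Psma1, Ppib and Gusb. The Psma1 region lay 25.1 kb from the gene (chr7:114301222-114301954). It stood at percentiles 3.0, 23.0 and 39.9 on D4, 58.9, 59.0 and 52.2 on D8 and 52.2, 65.3 and 64.9 on D21, a rise of 1.13 ± 0.31 on D8 (limma, adjusted p = 0.0151). Without D4 list 1 this fell to 0.62 (adjusted p = 0.0519). The Ppib promoter rose from percentiles 88.2, 89.2 and 86.1 to 98.9, 96.8 and 97.3 on D8 and 94.7, 98.9 and 97.7 on D21 (0.85 ± 0.22 on D8, limma, adjusted p = 0.00951). The Gusb promoter, at percentiles 6.2, 5.8 and 15.3 on D4, reached 20.1, 22.0 and 28.3 on D8 and 21.5, 33.1 and 34.4 on D21 (0.65 ± 0.22 on D8, adjusted p = 0.0408, and 0.84 ± 0.22 on D21, adjusted p = 0.0111, limma). The Gusb summits of D4 and D8 are those given above, at 95 to 144 and at 542 to 551 bases from the start, so the heights compared are at different places of the region. The Gusb call on D8 ended without any of 7 of the 9 lists, all but D4 list 3 and D21 list 1, with adjusted p of 0.0560 to 0.140. On D21 it ended without D21 list 3 (0.0528), and that of Ppib without D21 list 2 (0.0572).

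The largest fall among the 40 regions was at the gene end of Hspa8 (chr9:40800594-40801835). Its fold enrichment stayed at 6.65, 6.76 and 6.80 on D4, 6.79, 6.84 and 6.64 on D8 and 6.90, 6.72 and 6.85 on D21, while the median over the always-called regions was 5.70 to 5.75 on D4 and 8.65 to 9.01 later. Its percentile fell accordingly, from 67.6, 69.3 and 71.7 to 19.5, 20.2 and 18.2 on D8 and 22.1, 19.3 and 23.1 on D21, and its score differed by -1.38 ± 0.19 on D8 (SE, limma, adjusted p = 0.000309). The recovered pileup was 69, 74 and 86 on D4, 127, 132 and 139 on D8 and 115, 100 and 128 on D21, at mean pileup percentiles of 98.3, 98.6 and 93.8. The local background of this region lay in the 98.0th to 99.3rd percentile on the 3 days.

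Vcp fell from percentiles 95.8, 98.1 and 96.7 on D4 to 76.3, 72.4 and 80.5 on D8 and 81.8, 77.1 and 76.7 on D21, a score difference of -1.16 ± 0.19 on D8 (SE, limma, adjusted p = 0.00102). Its fold enrichment was 9.78 ± 0.50 on D4, 10.9 ± 0.31 on D8 and 10.8 ± 0.35 on D21 (SD, n = 3), while the median region went from 5.70 to 5.75 on D4 up to 8.65 to 9.01 later. The score difference on D8 was -0.87 for B2m and -0.87 for Polr2a, -0.79 for Ubb, -0.88 for the Actb body region 1.73 kb from the gene end and -0.70 for the Ywhaz body region 8.26 kb from it. B2m went from percentiles 52.0, 65.5 and 75.8 to 21.6, 39.7 and 33.3 on D8, and Polr2a from 63.3, 49.9 and 45.5 to 29.7, 17.2 and 18.3. All 7 regions that fell on D8 were also lower on D21. Tbp (-0.98), the Actg1 region 1.25 kb from the gene end (-0.78) and Ppia (-0.57) were lower on D21 against D4 and had not passed on D8. On D8 the calls ended for Ubb without D8 list 2 (adjusted p = 0.0581, limma), for Ywhaz without D8 lists 2 or 3 (0.0593 to 0.0823) and for the Actb body region without D8 list 3 (0.0601). On D21 they ended for Ppia without any of 8 lists, all but D4 list 2 (0.0513 to 0.128), for Actg1 without D4 list 2 or D21 list 3 (0.0650 to 0.130) and for Polr2a without D21 list 3 (0.0509).

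**Figure D4:**
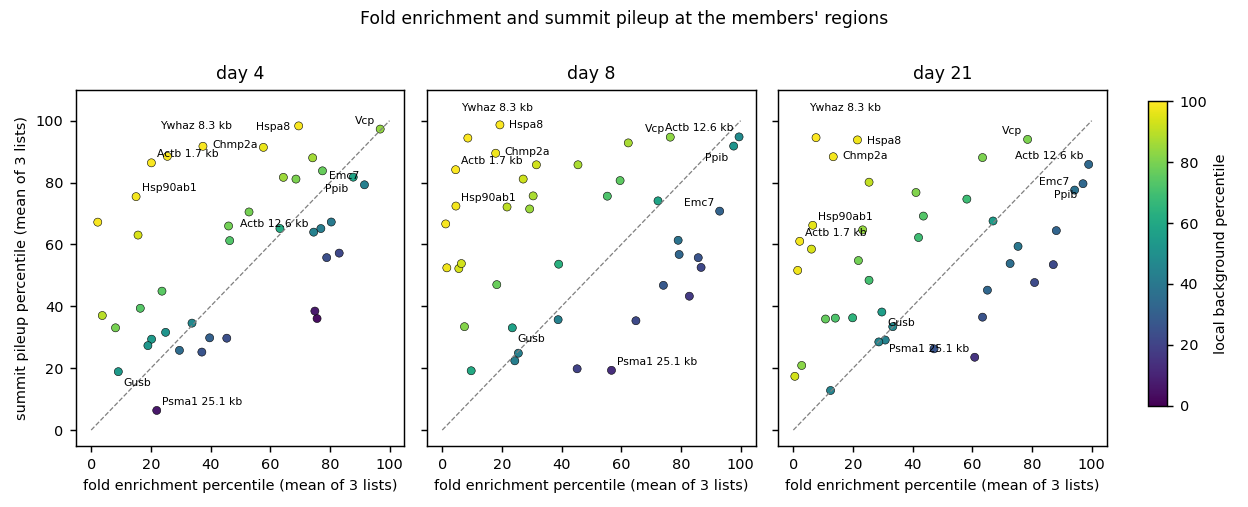
Mean percentile of fold enrichment (x axis) against mean percentile of the recovered summit pileup (y axis) for the 40 regions on each day, colored by the percentile of the local background. Points above the dashed line stand higher by pileup than by fold. Hspa8, Chmp2a, Hsp90ab1 and the Actb and Ywhaz body regions lie far above it, with local backgrounds at percentile 95.9 or above on all 3 days.

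Fold and pileup ranked several of these genes differently. On D8 the Actb body region 1.73 kb from the gene end stood at the 4.5th percentile by fold and the 84.2nd by pileup, with a local background at the 99.3rd. Chmp2a stood at the 17.9th by fold and the 89.5th by pileup (background 97.5th), Hsp90ab1 at the 4.6th and 72.4th (98.2nd) and the Ywhaz region 8.26 kb inside at the 8.6th and 94.4th (99.4th). Emc7 showed the reverse, with the 93.0th by fold, the 70.8th by pileup and the 31.4th by background. A rank by pileup, chosen after the values were seen, therefore gave other calls. On D8 against D4, 4 of the 40 rose and 0 fell (18.8% of all regions called either way, 9.68% up and 9.09% down): the Actb distal region (1.26), the Actg1 region 5.05 kb from the gene end (1.06), the Psma1 distal region (1.00) and Ppib (0.49). On D21 against D4, 4 rose and 4 fell (20%, against 18.8%, of which 10% up and 8.76% down). The calls common to both ranks were 3 on D8 and 7 on D21, with 1 in opposite directions on D21, the Ywhaz region 8.26 kb inside.

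By pileup, D21 differed from D8 where fold had shown no call: 0 rose and 10 fell (25%, against 18.3% of all ranked regions, 9.69% up and 8.63% down). Falls also outnumbered rises in similar sets. Among 104 always-called regions of the related constitutive genes, 3 rose and 22 fell. Among the 8003 ranked regions within 1 kb of a gene end, 508 rose and 964 fell. The 10 member regions that fell included all 3 Actg1 regions, with score differences of -0.91, -1.06 and -0.81. The others were Tuba1b (-0.66), Ppia (-0.75), Hspa8 (-0.65), Ubb (-0.59), Ppib (-0.56) and a pair of Actb regions (-0.79 and -0.54). At the Actg1 promoter the pileup was 27, 24 and 27 on D4, 69, 64 and 68 on D8 and 51, 38 and 58 on D21. At the Actg1 region 1.25 kb away (chr11:120349747-120350679) it was 23, 28 and 31, then 58, 72 and 72, then 49, 45 and 44. In both regions D8 stood above D21 in every list, and D21 above D4. The median pileup ratio over all ranked regions was 1.02 for D21 over D8 and 2.05 for D21 over D4.

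**Figure D5:**
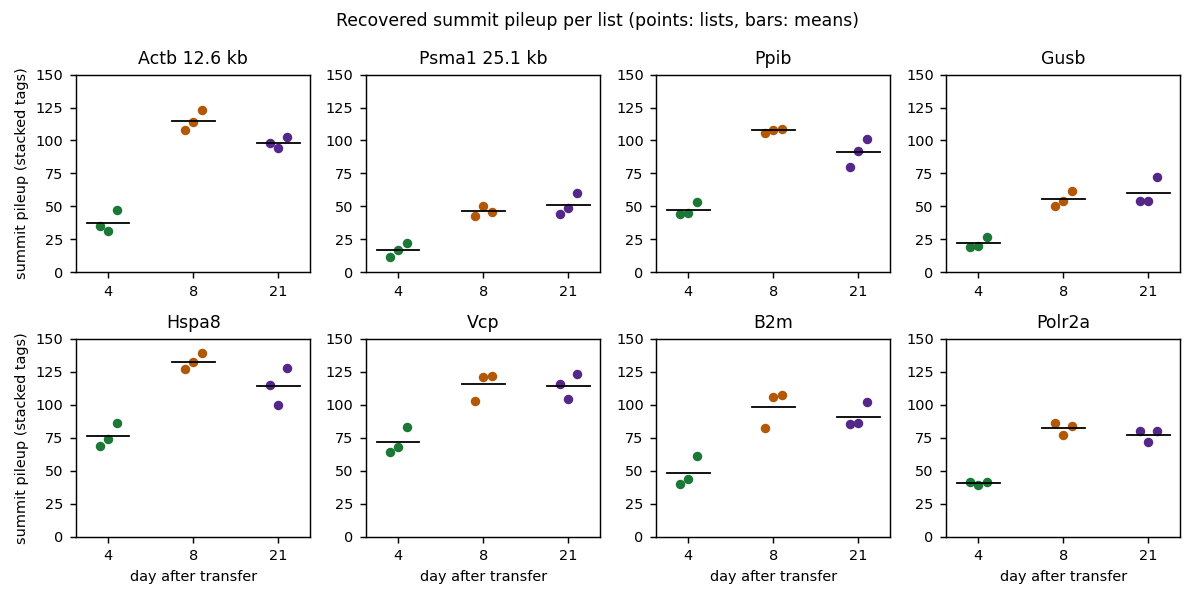
Recovered summit pileup (y axis, stacked tags) in each list by day after transfer (x axis) for 4 regions whose fold rank rose (top) and 4 whose fold rank fell (bottom). Points are lists and bars the mean of 3. All 8 stand higher on D8 and D21 than on D4 in every list, the Actb distal region from 31 to 47 up to 108 to 123 on D8. Pileups were higher later in general: the median ratio over all ranked regions was 2.01 for D8 over D4 and 2.05 for D21 over D4.

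Since the lists of a day may share reads, the pileup ratios were also given with counting error alone. The mean pileup of a day's lists was taken as 1 count, which holds if those lists contain the same reads. If they hold separate reads of 1 library, these intervals are too wide for counting error. The ratios were set against the median ratio of all ranked regions. This median was 2.01 for D8 over D4, 1.02 for D21 over D8 and 2.05 for D21 over D4. The Actb distal region rose 1.52 times as much as the median region (95% interval 1.05 to 2.19) from D4 to D8, and the Actg1 region 5.05 kb from its gene 1.51 times (1.00 to 2.27, excluding 1). These were 2 of 40, against 2.02% of all regions. From D8 to D21 the interval excluded 1 for 1 region (1.63% of all), the Actg1 region 1.25 kb from its gene at 0.67 (0.46 to 0.98). From D4 to D21 it did so for 1 (2.05%), the Hspa8 gene-end region at 0.73 (0.55 to 0.98). For Vcp from D4 to D8 the interval was 0.60 to 1.07, for Ppib 0.80 to 1.59, for the Psma1 distal region 0.78 to 2.36 and for Hspa8 0.65 to 1.14. These pileup differences were thus not detectable at this depth if the lists of a day contain the same reads. Whether they are detectable if the lists hold separate reads of 1 library was not tested. The intervals concern pileup and do not cover the fold ranks, in which Vcp and Hspa8 fell.

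The 84 related constitutive genes had 104 always-called regions. By fold rank 13 rose and 14 fell on D8 against D4, 6 rose and 22 fell on D21 against D4, and 0 passed between D8 and D21. The 2 largest differences on D8 were at a region of Tuba1c, another alpha-tubulin, and a region of Cs, citrate synthase. The Tuba1c region (chr15:99008626-99009404) went from the 62.9th percentile to the 98.2nd (1.78, limma, adjusted p = 0.000141), and the Cs region rose by 1.30 (0.00534). Another Tuba1c region (chr15:99029612-99030621) fell from the 76.9th percentile to the 43.7th (-0.89, limma, adjusted p = 0.00323). The other ranked Cs region was not called (-0.13). On D21 the largest differences were at a region each of Ywhaq, Reep3 and Actr3. That of Ywhaq, a 14-3-3 protein related to Ywhaz, went from the 91.1st percentile to the 51.4th (-1.32, limma, adjusted p = 0.000413). Those of Reep3 and of Actr3, of the Arp2/3 complex, differed by -1.16 (0.00314) and -1.15 (0.00159). The other ranked regions of Ywhaq, Reep3 and Actr3 were not called on D21 against D4.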

How the data were processed

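ATAC-seq peak lists of 9 libraries, 3 per day, were used, and the titles gave the groups. The submitters' processing notes name BWA (0.7.15), Picard, MACS2, deepTools (2.0) and the build mm10, without saying what each did. The authors deposited 1 narrowPeak list per library. A deposited peak has its position, a score, a fold enrichment (the ratio of summit pileup to local background), a −log10 p and a −log10 q. No list holds a read total, and the smallest −log10 q in any list was 1.30.

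Of 353507 peaks, the 353295 on chromosomes 1 to 19 and X were merged into union regions, and a region was called in a list that shared at least 1 base with it. Gene positions came from RefSeq's GRCm38.p6 table, and 95.3% of regions were assigned to a gene. A region inside 1 gene body and nearest to another gene's end counted for both. Fits used limma 3.58.1 (trend and robust) in R 4.3.3 over all 9 lists with 1 term per day, and Benjamini-Hochberg adjustment over all features tested, with a threshold of 0.05. Shares were compared with an exact permutation test (scipy 1.17.1). Pileup and background were recovered from each deposited fold and −log10 p under the Poisson formula, within a tolerance of 0.001, for at least 99.995% of peaks in each list. Both fits were tested on simulated data, where the rank fit recovered most of the changed regions with few calls at unchanged ones, and the gene count fit few of the changed genes with many calls at unchanged ones.

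The members and gene lists were chosen with earlier results of these data known. All members are named, and of the related genes up to 3 per comparison, those with the largest called differences. The rank by pileup and its counting intervals, which cover counting error only, were added after the values were seen.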

Additional observations from a re-analysis of the deposited data

How the results depend on the processing

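The share of the members' regions called changed direction when each list was reduced to its strongest peaks, to -16.4 percentage points for D8 and for D21 against D4, over 63 regions in place of 104. It moved to 49.0 and 43.9 points when peaks had to cover 50% of a region. Leaving out 1 list gave 31.6 to 35.4 points for D8 against D4, 25.8 to 31.1 for D21 against D4 and -7.85 to -2.40 for D21 against D8. In the gene count fit, members called for D8 and D21 against D4 were 2 and 2 with at least 6 regions per gene, 22 and 23 with at least 1, and 2 and 1 with the strongest peaks. These settings also changed how many members were tested (5, 29 and 7 in place of 15). Over all genes, higher and lower calls on D8 against D4 were 1345 and 2294, 823 and 3502 with a pseudocount of 1, 7005 and 0 without the division, 706 and 664 with at least 6 regions, 1736 and 7403 with at least 1, and 1150 and 2603 with the 50% cover. Without the division the median over all genes moved from -0.14 to 1.17. Leaving out 1 list gave 8 to 9 calls on D8, 7 to 10 on D21 and 0 for D21 against D8. Regions called in the rank fit for D8 and D21 against D4 were 6 and 8 by −log10 q, 7 and 8 among gene-end regions alone, 7 and 9 with the strongest peaks and 6 and 6 with the 50% cover. By pileup they were 4 and 8, with 10 for D21 against D8, and by counting intervals 2, 1 and 1. Leaving out 1 list gave 8 to 13, 10 to 16 and 0. The cause was not tested, except that the gene-end, strongest-peak and 50% settings held fewer of the members' regions (26, 25 and 17).

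Signs that reversed without the division were, for D8 against D4, Actb 0.79, Actg1 0.12, Eef2 0.28, Tbp 0.25, Ubb 0.41 and Psma1 0.45, and for D21 against D4, Actb 0.74, Eef1a1 0.16, Eef2 0.28, Tbp 0.49, Ubb 0.41, Tuba1b 0.49, Polr2a 0.41 and Psma1 0.66. Snrpd3 on both days, Eef1a1 on D8 and Actg1 on D21 then stood at 0. Psma1 also reversed on D21 with the strongest peaks (0.044) and, with the 50% cover, on D8 (0.24) and D21 (0.53), and Hspa8 on D8 (-0.057). By pileup rank, Polr2a (0.054), Ywhaz (0.39), B2m (0.17) and Hspa8 (0.073) reversed on D8, and Ywhaz (0.41) and Ppib (-0.065) on D21. The replicate numbers paired the lists weakly at most. Correlations between lists of different days were -0.002 to 0.031 for the same number and -0.025 to 0.021 for different numbers. With the replicate block, 8 and 8 members (gene count fit) and 11 and 13 regions (rank fit) were called on D8 and D21 against D4, a setting in which the Hspa8 gene count call was lost. Of the 9 lists, 6 correlated best with a list of their own number.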
